A study of Mus musculus with 6 samples.

Results

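The nuclear-encoded genes of the mitochondrial respiratory chain were examined in endothelial cells isolated from mouse retinas. The set took every gene of the count table whose symbol begins with a root of the 5 respiratory complexes (Nduf, Sdha to Sdhd, Uqcr, Cox4 to Cox8, or Atp5), leaving out pseudogene symbols, with a summed count of at least 15 over the 6 libraries. Of 92 matching symbols, 87 reached that sum, among 24421 genes in the table. Complex was taken from the symbol, which gave 37 genes of complex I, 7 assembly factors of complex I (Ndufaf symbols), 4 of complex II, 8 of complex III, 14 of complex IV and 17 of complex V. The 5 that did not reach the sum were Cox6a2, Cox7b2, Cox8b and Cox8c, which are tissue-restricted forms, and Ndufs5, a complex I subunit that was listed at 0 in every library. All counts of Cox8b, 9 in number, came from a single library, Smad4f/f replicate 3.

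The 3 Smad4-iECKO samples came from mice with floxed Smad4 and Cdh5-CreERT2, a Cre recombinase that becomes active with tamoxifen and is driven by the promoter of the endothelial cadherin gene. The 3 Smad4f/f samples carried the floxed allele and no Cre. All pups, on a mixed BL6/CD1 background, received tamoxifen at postnatal day 1 and were collected at postnatal day 7, so tamoxifen was common to both groups and Cre was not. The labels do not say whether a sample was 1 pup or several, so p-values measure only the spread between these samples. Smad4 is the shared transcriptional mediator of BMP and TGF-beta signals, and the comparison asked which transcripts differ when it is deleted from the endothelium.

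In oxidative phosphorylation, complexes I and II pass electrons from NADH and succinate to ubiquinone, complex III passes them on to cytochrome c, and complex IV gives them to oxygen. Complexes I, III and IV pump protons out of the matrix, and complex V, the ATP synthase, makes ATP from their return. Most subunits are encoded in the nucleus and imported, while a few of the central ones come from mitochondrial DNA and were not analysed here. Endothelial cells are known to make much of their ATP by glycolysis, and photoreceptors, their neighbours in the retina, are rich in mitochondria.

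Many respiratory chain promoters are known to hold sites of the factors NRF1, GABPA (an ETS factor also called NRF2) and YY1. RefSeq promoters (GRCm38.p6, 250 bases before to 50 bases after the start) were found for 70 of the 87 genes. The letters GCGCANGCG (NRF1), CCGGAAG (ETS) and AAGATGGCG (YY1) were searched on both strands, and a match of the ETS letters can share its last 3, AAG, with a match of the YY1 letters. Among the 69 of these genes that entered the test below, 20 promoters (29.0%) held the NRF1 letters, against 13.3% of the 10770 tested genes with a promoter. The ETS letters were in 16 (23.2%, against 17.0%), and the YY1 letters in 6 (8.7%, against 2.99%). In the 250 bases before the start alone, the shares were 18.8% against 10.9% for NRF1, 17.4% against 13.1% for ETS, and 0 of 69 against 1.11% for YY1, so all 6 YY1 matches reached into the bases after the start. A match of letters is not a measured binding site.

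The 170 bases before the start are printed 5′ to 3′ for 5 genes, with matched letters in capitals, because these promoters hold the motifs and their genes differ widely in the comparison that follows: Atp5k and Ndufa11 had among the most negative fold changes, Sdhd showed no overlap between groups, and Cox6a1 and Sdha had fold changes near 0. The stretches are chr5:108434400-108434569 (minus strand), chr17:56717592-56717761 (plus), chr9:50603850-50604019 (minus), chr5:115348959-115349128 (minus) and chr13:74350241-74350410 (minus), in the order printed.
Atp5k: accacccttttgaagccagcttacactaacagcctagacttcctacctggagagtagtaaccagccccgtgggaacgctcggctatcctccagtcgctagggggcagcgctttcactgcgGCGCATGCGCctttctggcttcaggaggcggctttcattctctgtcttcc
Ndufa11: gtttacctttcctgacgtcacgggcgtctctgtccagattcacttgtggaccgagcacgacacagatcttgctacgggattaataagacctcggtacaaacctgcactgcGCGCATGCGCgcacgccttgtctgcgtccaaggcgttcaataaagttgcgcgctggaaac
Sdhd: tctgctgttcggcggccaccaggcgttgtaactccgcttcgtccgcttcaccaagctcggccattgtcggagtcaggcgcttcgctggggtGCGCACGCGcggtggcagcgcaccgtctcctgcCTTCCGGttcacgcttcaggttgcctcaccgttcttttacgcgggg
Cox6a1: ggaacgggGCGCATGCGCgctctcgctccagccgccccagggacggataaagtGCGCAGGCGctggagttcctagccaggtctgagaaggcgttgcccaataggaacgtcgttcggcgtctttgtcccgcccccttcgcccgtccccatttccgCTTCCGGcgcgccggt
Sdha: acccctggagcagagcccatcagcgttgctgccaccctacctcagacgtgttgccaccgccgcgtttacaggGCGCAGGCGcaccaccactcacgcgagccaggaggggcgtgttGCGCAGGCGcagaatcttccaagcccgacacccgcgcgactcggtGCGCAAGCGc
The NRF1 letters stand on both strands at once in Atp5k, Ndufa11 and the first Cox6a1 match, and the ETS letters of Sdhd and Cox6a1 stand on the opposite strand. The 20 tested genes with the NRF1 letters had a median log2 fold change of -0.50, and the 49 without them one of -0.47. Without Smad4f/f replicate 1, a library described below, the medians were -0.12 and -0.22, so their order turned.

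Total counts ran from 2233360 in Smad4-iECKO replicate 2, the shallowest library, to 23164952, and 3 counts corresponded to 1.39 CPM (counts scaled to the library's size by TMM) in that library and to at most 0.239 CPM in the others. Such limits cover counting error only. No endothelial or rod photoreceptor marker on a list of 10 and 12 genes was at 0 in any library. The endothelial markers summed to 0.191%, 0.397% and 0.290% of counts in Smad4-iECKO replicates 1, 2 and 3, against 0.571%, 0.117% and 0.319% in Smad4f/f replicates 1, 2 and 3. The rod markers summed to 0.778%, 0.578% and 0.702% in Smad4-iECKO, against 0.506%, 0.999% and 0.784% in Smad4f/f. Smad4-iECKO replicate 2, with its low depth, and Smad4f/f replicate 1, in which cytosolic ribosomal proteins took 2.45% of counts against 0.834% to 1.12% in the other libraries, stood apart from the rest, so results that rest on them are also given without them. Sample titles carry a prefix, 38 for 4 samples (2 per group) and 40 for 2 samples (1 per group, the replicates numbered 2), whose meaning the labels do not give. Many respiratory chain genes have near-identical processed pseudogenes, the treatment of reads that match both is not given in the sources used here, and the library kit does not mark strand, so a count may hold reads of a copy or of an overlapping gene. In such bulk samples fewer cells of a type and less RNA per cell cannot be told apart.

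Scaled to library size by TMM, the summed level of the respiratory chain transcripts was lower in the Smad4-iECKO libraries. Over the 87 genes they reached 4768.3, 4609.7 and 4464.9 CPM in Smad4-iECKO replicates 1, 2 and 3, against 7255.2, 5491.2 and 4887.1 CPM in the Smad4f/f replicates in the same order. On this scale the groups did not overlap, and the highest value belonged to Smad4f/f replicate 1. As a plain share of counts the sum was 0.486%, 0.444% and 0.442% in Smad4-iECKO, against 0.728%, 0.576% and 0.475% in Smad4f/f, and the groups overlapped, with Smad4-iECKO replicate 1 above Smad4f/f replicate 3. The CPM means were 4614.3 ± 151.7 CPM in Smad4-iECKO, against 5877.8 ± 1230.0 CPM in Smad4f/f (SD, n = 3 each), so the Smad4-iECKO mean was 78.5% of the Smad4f/f mean, or 88.9% without Smad4f/f replicate 1.

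By gene, 78 of the 86 genes tested had a negative log2 fold change and 8 a positive one, with a median of -0.48, against -0.02 over all 14362 genes tested, of which 51.8% were negative. The 87th gene, Cox7a1, was too low to be tested. None of the 86 passed edgeR's quasi-likelihood test once p-values were adjusted (Benjamini-Hochberg) over all genes, neither as lower nor as higher, where the background in each direction was 0.0% of genes called. Each had an edgeR adjusted p of 1.0. At an unadjusted p under 0.05, edgeR placed 1 of the 86 lower (Cox8a), against a background of 0.39% of all genes, and none higher, against 0.919%. DESeq2 called none of the 86, against 0.0209% of genes called lower and 0.0557% called higher, and placed 2 lower at an unadjusted p under 0.05, against 0.62% of all genes. That number was 10 by edgeR with the title prefix as a block, against 1.15% of all genes, and 4 by limma-voom with sample quality weights, against 1.43%.

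Some markers of other cell types also differed in level between the groups. The 10 microglia and macrophage markers summed to 0.00918%, 0.00743% and 0.0113% of counts in Smad4-iECKO, against 0.0053%, 0.00365% and 0.00583% in Smad4f/f, with no overlap. Their median log2 fold change was 0.81, with 9 positive, and 4 of the 10 (C1qb, C1qc, Itgam and Laptm5) had no overlap, with all Smad4-iECKO values on top, against 2.49% of all tested genes. edgeR called none of the 10 and placed 3 higher at an unadjusted p under 0.05, and C1qa and P2ry12 were at 0 in Smad4-iECKO replicate 2. Of 5 retinal astrocyte markers 4 were positive (median 0.63), and their sums, 0.0311%, 0.0167% and 0.0776% of counts in Smad4-iECKO, against 0.0475%, 0.0147% and 0.0162% in Smad4f/f, overlapped. The sums of cone photoreceptor, Mueller glia and erythroid markers overlapped as well. The part of these cells in the level of the respiratory chain genes was not tested.

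**Figure D1:**
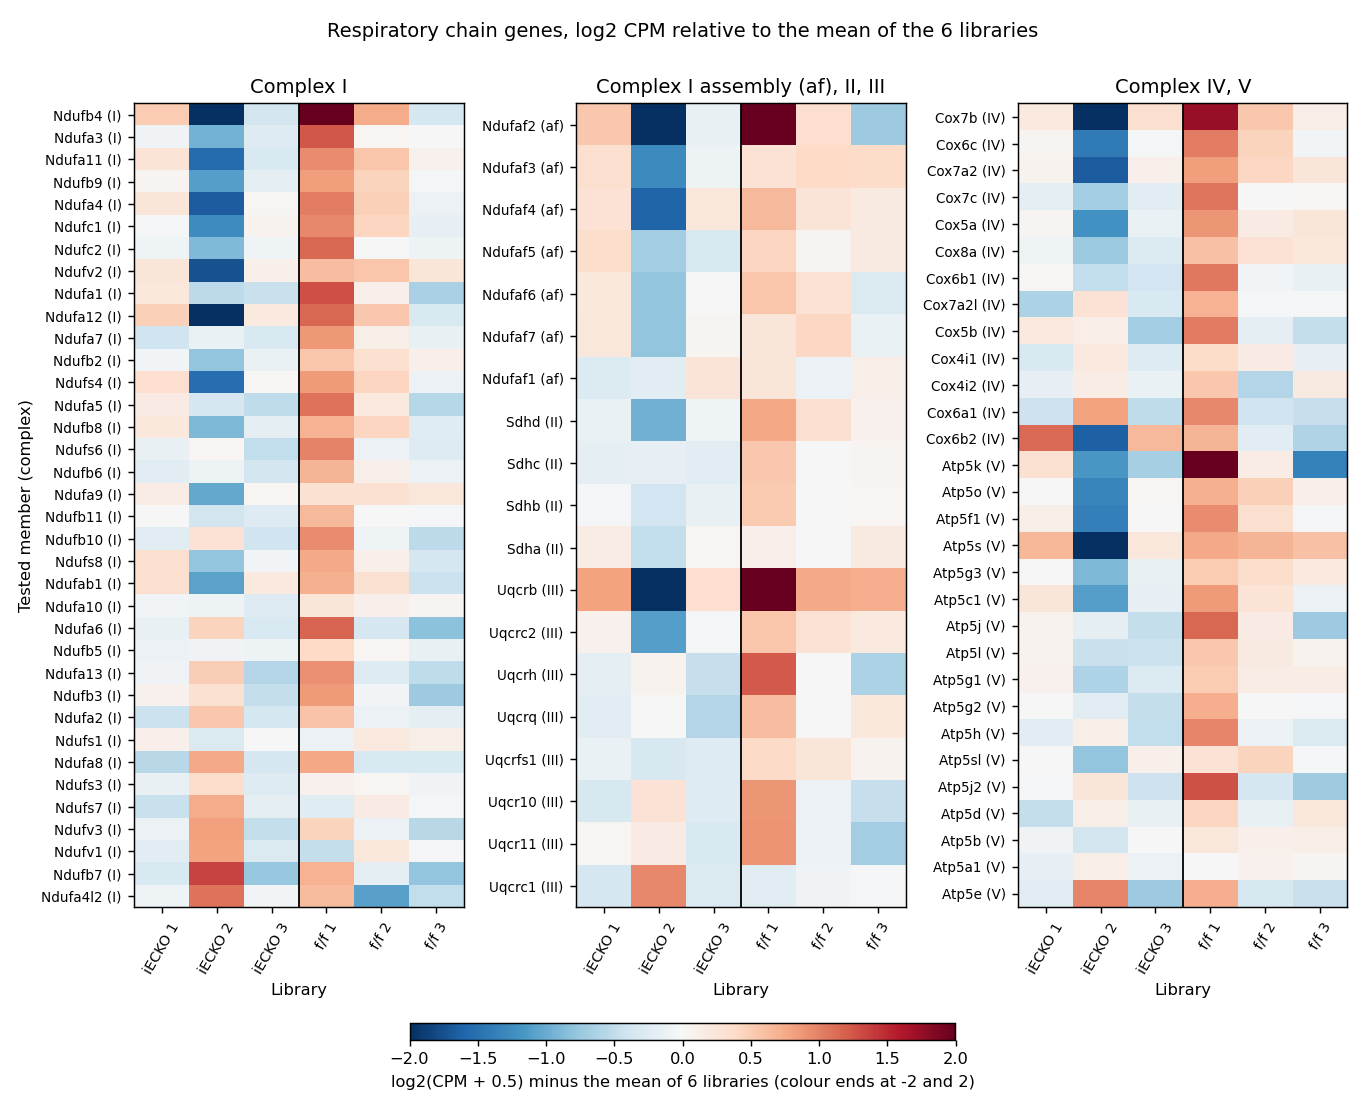
Level of the tested genes, all but 1 of the 86 (vertical axis, by complex and, within it, by log2 fold change) in each library (horizontal axis, Smad4-iECKO left of the black line and Smad4f/f right of it), as log2(CPM + 0.5) minus the mean of the 6 libraries. Smad4f/f replicate 1 was the highest library in 68 of the 86 genes (79.1%), against 26.5% of all tested genes. Smad4-iECKO replicate 2 was the lowest in 46 (53.5%), against 40.2% of all tested genes.

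In 19 of the 86 genes (22.1%), every Smad4-iECKO library lay below every Smad4f/f library, against 2.83% of all tested genes. In no gene did every Smad4-iECKO library lie above, against 2.49% of all tested genes. The 19 came from all 5 complexes, with 4 genes of complex I, 3 of complex II, 3 of complex III, 4 of complex IV and 5 of complex V. Without Smad4f/f replicate 1 the count was 21 of 86 (24.4%), against 7.52% of all tested genes, since fewer libraries overlap less often.

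Complex I receives electrons from NADH through a peripheral arm of flavin and iron-sulfur subunits. Its 37 genes had a median log2 fold change of -0.44 (range -1.61 to 0.55), with 32 negative and 5 positive. The upper end was Ndufa4l2, counted here by its symbol, as was Ndufa4, which is known to belong to complex IV. Summed levels were 1387.4, 1493.5 and 1232.3 CPM in Smad4-iECKO, against 2099.8, 1615.2 and 1283.6 CPM in Smad4f/f, and the groups overlapped. Without Smad4f/f replicate 1, 23 of the 37 were negative (median -0.09), and the Smad4-iECKO mean of the sum was 94.6% of the Smad4f/f mean. The core subunits Ndufs1, Ndufs7, Ndufs8, Ndufv1 and Ndufv2, which carry flavin or iron-sulfur centres, and Ndufs3, which carries none, had fold changes between -0.69 (Ndufv2) and 0.26 (Ndufv1). Ndufs1 (chr1:63143596-63176833), which carries several of those centres, was at 117.2, 88.8 and 108.0 CPM in Smad4-iECKO, against 100.8, 124.2 and 117.8 CPM in Smad4f/f. The groups overlapped, and the log2 fold change was -0.12 (standard error 0.27, unadjusted p = 0.654 by edgeR).

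Ndufv1 (chr19:4007384-4012806), the subunit that binds NADH and FMN, was at 104.7, 213.8 and 99.9 CPM in Smad4-iECKO, against 87.0, 141.1 and 119.2 CPM in Smad4f/f. Its high Smad4-iECKO value was replicate 2, and without that library the log2 fold change was -0.21. The smallest p-values of complex I were those of the accessory subunits Ndufb9, Ndufa3 and Ndufa11, which surround the core. Ndufb9 (chr15:58933756-58939488) was at 40.9, 18.1 and 34.3 CPM in Smad4-iECKO, against 70.9, 53.9 and 38.2 CPM in Smad4f/f, with Smad4-iECKO replicate 1 above Smad4f/f replicate 3. The log2 fold change was -0.79 (standard error 0.39, unadjusted p = 0.0717 by edgeR). Ndufa3 (chr7:3617373-3620327) was at 14.1, 7.44 and 12.2 CPM in Smad4-iECKO, against 35.5, 15.1 and 14.6 CPM in Smad4f/f, with no overlap. Its log2 fold change was -0.92 (standard error 0.47), and -0.38 without Smad4f/f replicate 1.

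Ndufa11, whose promoter is printed above, was at 22.4, 6.04 and 14.8 CPM in Smad4-iECKO, against 35.9, 27.3 and 19.6 CPM in Smad4f/f, with overlap (log2 fold change -0.89, standard error 0.48). The other complex I genes without overlap were Ndufa9, Ndufa10 and Ndufb2. Ndufa10 (chr1:92439010-92473860), an accessory subunit, was at 63.3, 60.9 and 54.9 CPM in Smad4-iECKO, against 78.0, 70.5 and 68.5 CPM in Smad4f/f. The spread within either group was small there, and the log2 fold change was -0.28 (standard error 0.26). The 7 assembly factors, which help build complex I and leave it, were all negative (median -0.36), and none of them separated the groups. Ndufaf3 was at 16.4, 5.11 and 12.1 CPM in Smad4-iECKO, against 16.01, 17.3 and 17.1 CPM in Smad4f/f. Ndufaf2 was at 2.499, 0 and 1.36 CPM in Smad4-iECKO, against 7.96, 2.10 and 0.748 CPM in Smad4f/f. In both, the groups overlapped. Smad4-iECKO replicate 2 was the lowest library of all 6 in Ndufaf3. Its 0 in Ndufaf2 allows up to 1.39 CPM, above Smad4f/f replicate 3, so the lowest library of Ndufaf2 cannot be told.

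Complex II, succinate dehydrogenase, links the citric acid cycle to the chain and is encoded wholly in the nucleus. Its summed level was 345.1, 243.1 and 329.2 CPM in Smad4-iECKO, against 437.4, 354.9 and 371.2 CPM in Smad4f/f, with no overlap. The Smad4-iECKO mean was 78.9% of the Smad4f/f mean, and 84.2% without Smad4f/f replicate 1. In 3 of its 4 genes the groups did not overlap, with Smad4-iECKO below, against 2.83% of all tested genes. Sdhd (chr9:50596357-50603812), a membrane anchor subunit, was at 48.8, 27.4 and 50.8 CPM in Smad4-iECKO, against 92.0, 67.0 and 57.2 CPM in Smad4f/f. The log2 fold change was -0.76 (standard error 0.34, unadjusted p = 0.0547 by edgeR). Sdhc, the other anchor, was at 45.8, 47.0 and 44.9 CPM in Smad4-iECKO, against 76.3, 52.9 and 54.5 CPM in Smad4f/f. Sdhb, the iron-sulfur subunit, was at 48.9, 38.6 and 45.4 CPM in Smad4-iECKO, against 72.9, 50.5 and 52.1 CPM in Smad4f/f. In both, Smad4f/f replicate 1 stood above the other libraries. The log2 fold change of Sdhc was -0.42, and -0.23 without that library, and the log2 fold change of Sdhb was -0.40, and -0.21 without it. Sdha (chr13:74322254-74350280), the flavoprotein that oxidises succinate, was the exception, at 201.6, 130.2 and 188.2 CPM in Smad4-iECKO, against 196.2, 184.5 and 207.4 CPM in Smad4f/f. The groups overlapped, with only Smad4-iECKO replicate 2 apart from the rest (log2 fold change -0.18, standard error 0.28).

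Complex III carries electrons from ubiquinol to cytochrome c. Its summed level was 416.8, 531.8 and 383.4 CPM in Smad4-iECKO, against 684.3, 482.5 and 439.3 CPM in Smad4f/f, with overlap, and 7 of 8 genes were negative (median -0.52). Without Smad4f/f replicate 1, 4 of the 8 were negative (median -0.14), and the Smad4-iECKO mean of the sum was 96.3% of the Smad4f/f mean. Cyc1, another subunit of this complex, has a symbol outside the rule and is given with the electron carriers below. Uqcrfs1 (chr13:30540308-30545362), the Rieske iron-sulfur protein, was at 61.8, 54.4 and 56.8 CPM in Smad4-iECKO, against 87.9, 80.5 and 71.1 CPM in Smad4f/f. No library of one group reached the other, and the log2 fold change of -0.47 (standard error 0.26, edgeR unadjusted p = 0.108) was -0.40 without Smad4f/f replicate 1. Uqcrc2, a core protein of the complex, was at 94.2, 41.4 and 88.0 CPM in Smad4-iECKO, against 130.9, 108.8 and 102.6 CPM in Smad4f/f. Uqcrq, a small subunit next to cytochrome b, was at 16.3, 19.1 and 12.7 CPM in Smad4-iECKO, against 29.9, 19.2 and 22.2 CPM in Smad4f/f. Neither pair of groups overlapped, though Smad4-iECKO replicate 2 and Smad4f/f replicate 2 of Uqcrq were nearly level.

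Uqcrc1 and Uqcrb lay at the ends of this complex. Uqcrc1 (chr9:108936633-108949623), the partner core protein of Uqcrc2, was at 122.0, 301.2 and 125.7 CPM in Smad4-iECKO, against 132.7, 147.9 and 149.8 CPM in Smad4f/f. The log2 fold change was 0.35 with all libraries and -0.24 without Smad4-iECKO replicate 2, so its sign rested on that library. Uqcrb (chr13:66900617-66905378), a small subunit near the quinone-binding site, was at 27.6, 0 and 19.7 CPM in Smad4-iECKO, against 83.3, 26.6 and 25.9 CPM in Smad4f/f. The 0 in Smad4-iECKO replicate 2 allows up to 1.39 CPM, below every other library. Smad4-iECKO replicate 2 was thus the highest of the 6 libraries in Uqcrc1 and the lowest in Uqcrc2, whose proteins stand side by side in the complex.

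Complex IV, cytochrome c oxidase, had the most negative median of the 5 complexes (-0.66, with 12 of 13 tested genes negative). Without Smad4f/f replicate 1, complexes II and V had more negative medians than complex IV. With offsets for GC and transcript length, complexes I, II and V did. The summed level of complex IV was 654.0, 621.0 and 614.1 CPM in Smad4-iECKO, against 1271.8, 794.7 and 697.2 CPM in Smad4f/f. The Smad4-iECKO values lay close together and below all Smad4f/f values, among which replicate 1 was far the highest. The Smad4-iECKO mean was 68.4% of the Smad4f/f mean, or 84.4% without Smad4f/f replicate 1, and the median log2 fold change was then -0.16, against -0.22 in complex II and -0.26 in complex V.

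Cox8a (chr19:7215153-7217616), the ubiquitous form of the smallest subunit, was at 94.2, 59.5 and 82.2 CPM in Smad4-iECKO, against 150.5, 121.6 and 115.5 CPM in Smad4f/f. The groups did not overlap. The means were 78.6 ± 17.6 CPM in Smad4-iECKO, against 129.2 ± 18.7 CPM in Smad4f/f (SD, n = 3 each), and the log2 fold change was -0.71 (standard error 0.29, unadjusted p = 0.0377 and adjusted p = 1.0 by edgeR). Without Smad4f/f replicate 1 it was -0.59 (edgeR, unadjusted p = 0.0866). Cox5a, a subunit on the matrix side, was at 36.2, 14.9 and 31.9 CPM in Smad4-iECKO, against 64.97, 39.1 and 41.6 CPM in Smad4f/f, with no overlap. Cox7c, a small membrane subunit, was at 29.7, 20.9 and 29.2 CPM in Smad4-iECKO, against 71.3, 33.6 and 34.6 CPM in Smad4f/f. Cox7a2, the widely expressed form of Cox7a, was at 50.5, 14.9 and 51.6 CPM in Smad4-iECKO, against 86.2, 64.1 and 56.9 CPM in Smad4f/f. These also did not overlap, Smad4-iECKO replicate 2 being the lowest and Smad4f/f replicate 1 the highest in both, and the fold change of Cox7c was -0.80 with all libraries and -0.35 without Smad4f/f replicate 1.

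Cox4i1 (chr8:120668222-120674207), the main regulatory subunit and the highest complex IV gene per transcript length (215.1 CPM per kilobase in Smad4-iECKO, against 255.0 in Smad4f/f), was at 139.5, 197.1 and 144.1 CPM in Smad4-iECKO, against 223.3, 193.5 and 153.1 CPM in Smad4f/f. The groups overlapped through Smad4-iECKO replicate 2 (log2 fold change -0.25, standard error 0.29). Cox6a1 was at 44.8, 104.6 and 42.0 CPM in Smad4-iECKO, against 117.2, 45.4 and 43.5 CPM in Smad4f/f. A single library in each group stood above the rest, replicate 2 in Smad4-iECKO and replicate 1 in Smad4f/f, and the other 4 lay together. Cox6b1 was at 52.6, 36.7 and 39.4 CPM in Smad4-iECKO, against 108.3, 49.7 and 46.5 CPM in Smad4f/f. Cox5b, another matrix-side subunit, was at 48.0, 46.0 and 25.8 CPM in Smad4-iECKO, against 86.7, 36.7 and 30.0 CPM in Smad4f/f, and its sign turned without Smad4f/f replicate 1 (0.25).

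**Figure D2:**
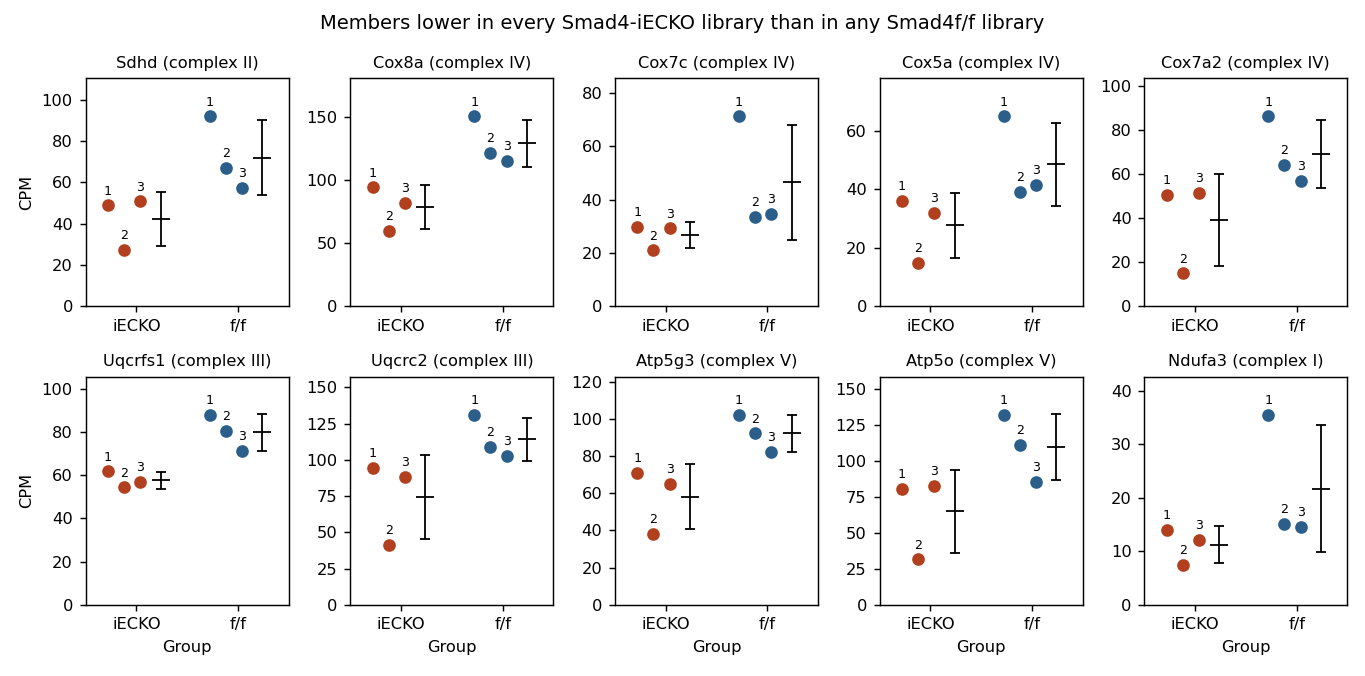
CPM (vertical axes, each from 0) of 10 of the 19 genes whose groups did not overlap, in Smad4-iECKO (left) and Smad4f/f (right). Points are libraries with their replicate number, and bars are the mean and SD of 3. In Cox7c, Cox5a and Ndufa3, Smad4f/f replicate 1 stood well above the other Smad4f/f libraries, which lay just above Smad4-iECKO.

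Complex V turns the proton gradient into ATP in its F1 head through a rotor in the membrane. Its summed level was 1867.0, 1677.1 and 1819.2 CPM in Smad4-iECKO, against 2643.4, 2145.3 and 2005.3 CPM in Smad4f/f, with no overlap, and 16 of 17 genes were negative (median -0.51). Atp5b (chr10:128083273-128090391), the catalytic beta subunit, had the highest level per transcript length of the whole set, 315.5 CPM per kilobase in Smad4-iECKO, against 386.4 in Smad4f/f. In CPM it was at 633.7, 516.4 and 663.4 CPM in Smad4-iECKO, against 779.5, 719.2 and 722.3 CPM in Smad4f/f. The groups did not overlap. The means were 604.5 ± 77.7 CPM in Smad4-iECKO, against 740.3 ± 34.0 CPM in Smad4f/f (SD, n = 3 each), and the log2 fold change of -0.29 (standard error 0.30, edgeR unadjusted p = 0.356) was -0.26 without Smad4f/f replicate 1. Its partner in the F1 head, the alpha subunit Atp5a1 (chr18:77773729-77782869), was at 527.1, 643.8 and 544.9 CPM in Smad4-iECKO, against 588.8, 627.9 and 614.0 CPM in Smad4f/f. The alpha subunit groups overlapped, with Smad4-iECKO replicate 2 highest of all 6 libraries, and the log2 fold change was -0.09 (standard error 0.29). Atp5c1, the gamma subunit that turns inside the F1 head, was at 129.3, 50.7 and 96.7 CPM in Smad4-iECKO, against 197.7, 131.6 and 100.3 CPM in Smad4f/f, with overlap.

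The c-ring of the rotor is built from identical mature proteins made by 3 genes. Atp5g3 (chr2:73908447-73911326) was at 71.0, 38.1 and 64.9 CPM in Smad4-iECKO, against 102.1, 92.2 and 82.4 CPM in Smad4f/f. Atp5g1 was at 33.0, 20.0 and 25.7 CPM in Smad4-iECKO, against 44.1, 34.4 and 34.3 CPM in Smad4f/f, and neither of these genes overlapped. Atp5g2 was at 22.0, 18.6 and 15.6 CPM in Smad4-iECKO, against 36.5, 21.7 and 21.2 CPM in Smad4f/f, with overlap between Smad4-iECKO replicate 1 and Smad4f/f replicates 2 and 3. Per transcript length, Atp5g3 gave 50.4%, 42.9% and 55.6% of the 3 in Smad4-iECKO and 49.4%, 56.6% and 54.1% in Smad4f/f, lowest in Smad4-iECKO replicate 2. Atp5o, the stalk subunit that joins head and stator, was at 80.7, 31.6 and 82.7 CPM in Smad4-iECKO, against 132.1, 111.3 and 85.8 CPM in Smad4f/f, with no overlap.

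Atp5k (chr5:108433244-108434448), a small subunit of the membrane part that takes part in dimers, had the most negative fold change of the 86 (-1.83, standard error 0.95, edgeR unadjusted p = 0.0858). Its levels were 11.3, 3.72 and 5.50 CPM in Smad4-iECKO, against 62.5, 10.04 and 3.22 CPM in Smad4f/f. The lowest of the 6 libraries was in Smad4f/f, and without Smad4f/f replicate 1 the log2 fold change was 0.08. Atp5k was the extreme of a wider pattern, in which Smad4f/f replicate 1 was the highest library in 68 of the 86 genes (79.1%), against 26.5% of all tested genes.

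**Figure D3:**
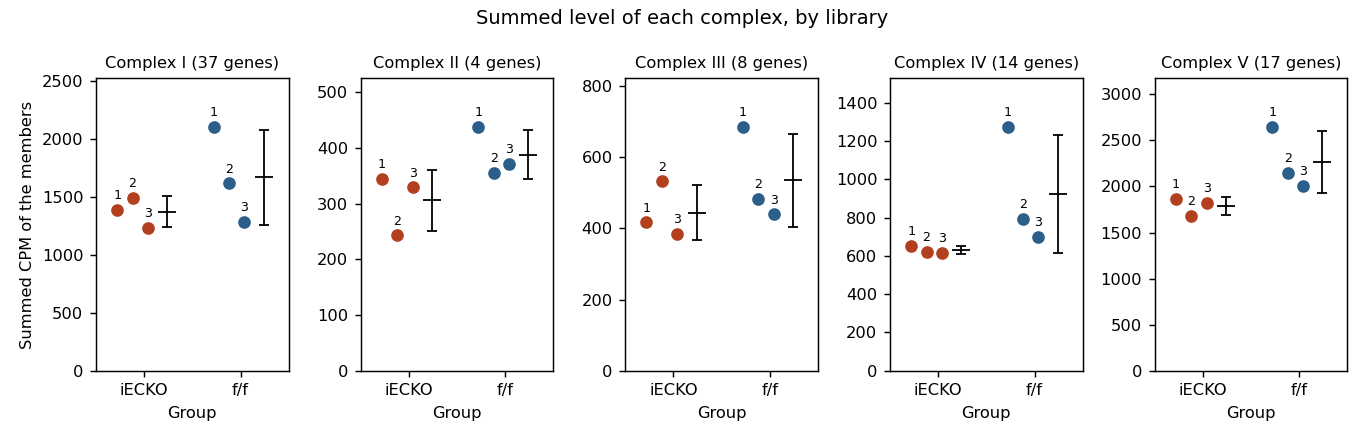
CPM summed over the genes of each complex (vertical axes, each from 0) in Smad4-iECKO (left) and Smad4f/f (right). Points are libraries with their replicate number, and bars are the mean and SD of 3; the groups do not overlap in complexes II, IV and V, and Smad4f/f replicate 1 is highest in all 5.

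A few subunits have a second isoform used in particular tissues or in low oxygen. Cox4i2 (chr2:152754173-152765037), the form of Cox4 known from lung and from oxygen-sensing cells, was at 5.11, 6.51 and 5.26 CPM in Smad4-iECKO, against 8.67, 3.70 and 6.66 CPM in Smad4f/f, with overlap. Per transcript length it made up 3.62%, 3.27% and 3.61% of Cox4i1 and Cox4i2 together in Smad4-iECKO and 3.83%, 1.92% and 4.27% in Smad4f/f. The low value was Smad4f/f replicate 2, which also held the lowest shares of endothelial and of pericyte and smooth muscle markers. The highest value was Smad4f/f replicate 3, while both marker shares were highest in Smad4f/f replicate 1. The part of these cell types in the level of Cox4i2 was not tested. Ndufa4l2 (chr10:127514967-127517154), a paralogue of Ndufa4 induced by hypoxia and typical of pericytes, was at 18.6, 42.3 and 19.1 CPM in Smad4-iECKO, against 31.0, 9.05 and 13.9 CPM in Smad4f/f. The groups overlapped (log2 fold change 0.55, standard error 0.54), and the direction was negative (-0.27) in the libraries with title prefix 38 alone.

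The 11 pericyte and smooth muscle markers, taken as a sum, shared their lowest library, Smad4f/f replicate 2, and their 2 highest libraries with Ndufa4l2. Single markers of the 11 differed in their highest libraries. The sum of the endothelial markers, given above, had the same lowest and the same 2 highest libraries. The pericyte and smooth muscle markers summed to 0.114%, 0.200% and 0.163% of counts in Smad4-iECKO and 0.290%, 0.066% and 0.142% in Smad4f/f, with none at 0. The part of either cell type in the level of Ndufa4l2 was not tested. Ndufa4, which bears a complex I symbol and is known to belong to complex IV, was at 70.6, 18.6 and 61.1 CPM in Smad4-iECKO, against 122.1, 83.7 and 55.3 CPM in Smad4f/f. Cox6b2, the testis form of Cox6b, stayed between 0 and 2.89 CPM in Smad4-iECKO, and between 0.524 and 1.97 CPM in Smad4f/f. Cox7a1, the heart and muscle form, did not exceed 0.453 CPM in any library.

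The level of these genes differed between libraries in ways that the genotype does not describe. Relative to the mean of the 6 libraries, the median of the 86 genes on the log2 scale was -0.01, -0.41 and -0.22 in Smad4-iECKO replicates 1, 2 and 3, against 0.71, 0.11 and -0.07 in Smad4f/f replicates 1, 2 and 3. Smad4-iECKO replicate 1 lay above Smad4f/f replicate 3 in this median, and Smad4f/f replicate 1 stood apart from all others. Without that library the median log2 fold change was -0.21, with 58 genes negative, and without Smad4-iECKO replicate 2 it was -0.46, with 84 negative. Within title prefix 38 the median log2 fold change was -0.50, with 83 of 86 negative. Between the 2 libraries of title prefix 40, which have no replicate, the median log2 ratio, Smad4-iECKO over Smad4f/f, was -0.52, with 58 of 86 below 0.

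Respiratory chain transcripts are short, with a median of 812 bases, and the tilt of Smad4f/f replicate 1 followed length among all genes. That library was the highest in 59.5% of the 856 tested genes under 1000 bases and in 25.9% of the 5664 genes of 2000 to 4000 bases. The genes under 1000 bases had a median log2 fold change of -0.33, and 0.03 without Smad4f/f replicate 1. The 52 respiratory chain genes under 1000 bases stood at -0.56, and -0.14 without that library, and the 27 of 1000 to 2000 bases at -0.40 and -0.26. The 7 of 2000 to 4000 bases, which include Sdha and Ndufs1, were at -0.28 and -0.22. Over the 86 genes the level in Smad4f/f replicate 1 had a Spearman correlation of -0.56 with transcript length, given as a description, since all 86 values share a library.

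Smad4-iECKO replicate 2 followed GC content and not length, with Spearman correlations of 0.56 and 0.01 over all tested genes with both values. Smad4f/f replicate 1 followed GC as well, the opposite way (-0.25, beside -0.29 with length). Smad4-iECKO replicates 1 and 3 (-0.39 and -0.37) and Smad4f/f replicates 2 and 3 (-0.25 and -0.1) also had negative correlations with GC. Over all tested genes the median deviation of Smad4-iECKO replicate 2 from the mean of the 6 libraries was -0.97 on the log2 scale under 45% GC and 0.56 at 55% GC or more. Over the respiratory chain genes this median deviation was -1.66 for the 9 under 45% GC and 0.14 for the 26 at 55% or more. Among these 9, Uqcrb and Atp5s were at 0 there, while Uqcrc2, at 41.4 CPM, and Ndufb3, at 22.3 CPM, were not. Cox7b was at 31.9, 3.25 and 34.4 CPM in Smad4-iECKO, against 93.1, 40.3 and 30.1 CPM in Smad4f/f. With the trends of both GC and transcript length taken up as offsets in the edgeR fit, a choice made after the data were seen, the median over the 86 genes was -0.17 with 60 negative, and edgeR called none. By complex the median was then -0.15 (I), -0.31 (II), -0.05 (III), -0.14 (IV) and -0.26 (V).

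**Figure D4:**
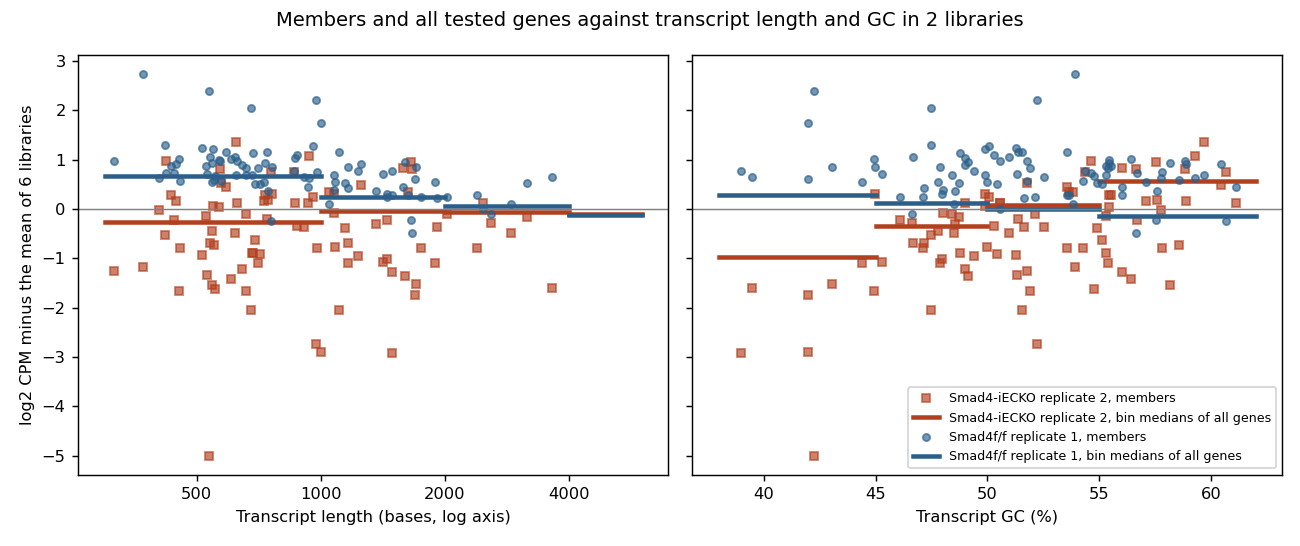
Level of each tested respiratory chain gene in Smad4-iECKO replicate 2 (squares) and Smad4f/f replicate 1 (circles), as log2 CPM minus the mean of the 6 libraries, against transcript length (left, log axis) and transcript GC (right). Horizontal lines are medians of all tested genes within bins: the line of Smad4f/f replicate 1 is highest for short transcripts, and that of Smad4-iECKO replicate 2 climbs with GC.

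**Figure D5:**
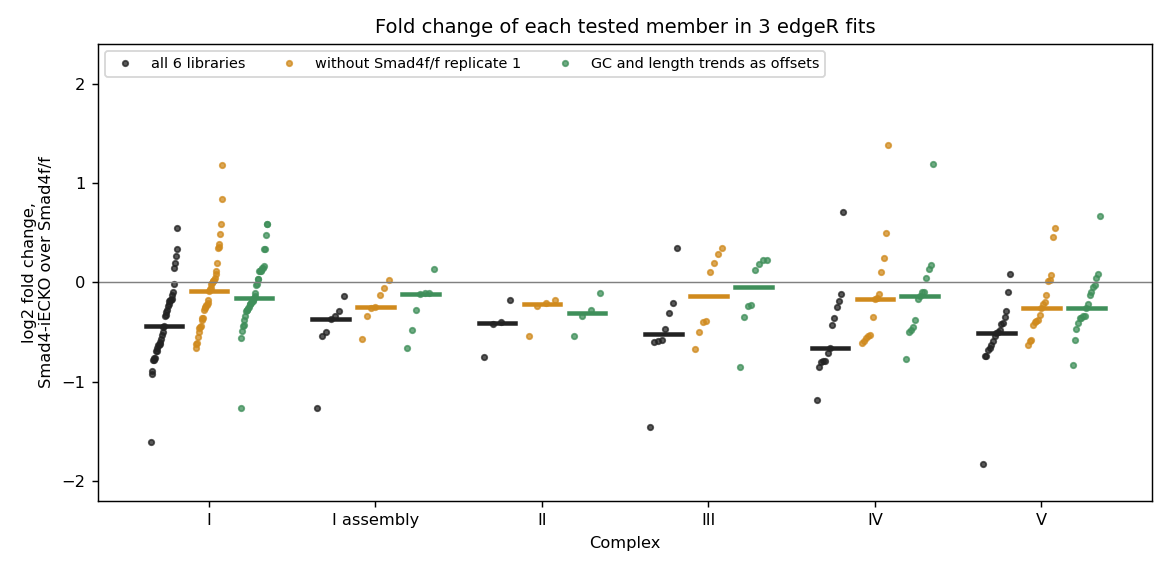
Log2 fold change of each tested gene (points) and the median (bars) by complex, Smad4-iECKO over Smad4f/f, in edgeR fits with all 6 libraries, without Smad4f/f replicate 1, and with GC and length trends as offsets. The medians lie below 0 in every complex and fit shown, and closer to 0 without that library and with the offsets.

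The 20 genes on a list of major subunits, which include Sdha, Sdhc, Atp5a1 and Ndufs1 among the longer transcripts, had a median log2 fold change of -0.31 with 17 negative, and -0.20 without Smad4f/f replicate 1. The groups did not overlap in 7 of the 20, with Smad4-iECKO below, against 2.83% of all tested genes. These were Atp5b, Cox5a, Sdhb, Sdhc, Sdhd, Uqcrc2 and Uqcrfs1, all of them among the 19 already counted above. The 810 genes that the authors' deposited table called lower at an adjusted p under 0.05 (5.69% of those with an adjusted p, against 7.7% called higher) included 33 of the 86 respiratory chain genes, and no gene of the set was called higher in it. In the authors' deposited table these were 12 genes of complex I, 3 each of complexes II and III, 6 of complex IV and 9 of complex V. Of the 33 called in the authors' deposited table, 18 were among the 19 whose groups did not overlap. When DESeq2 was run on all 18 columns of the count table, which hold 3 identical columns for each sample, it called 32 of the genes lower, against 4.79% of all genes with an adjusted p, while DESeq2 on 1 column per sample called none.

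Other genes of mitochondrial metabolism were read in the same fit, and edgeR called none in either direction. All 16 genes of pyruvate dehydrogenase and the citric acid cycle were negative, with a median of -0.25 and -0.19 without Smad4f/f replicate 1. Idh3a, of NAD-dependent isocitrate dehydrogenase, was at 56.0, 35.8 and 60.2 CPM in Smad4-iECKO, against 69.5, 67.7 and 68.2 CPM in Smad4f/f, with no overlap (log2 fold change -0.43, standard error 0.30). Of 41 assembly factors outside the set, 30 were negative (median -0.21). Of 7 electron carriers, related dehydrogenases and subunits outside the symbol rule, 5 were negative (median -0.30). Among these 5, Cycs, cytochrome c, was at 18.8, 20.4 and 13.0 CPM in Smad4-iECKO, against 38.6, 20.0 and 16.5 CPM in Smad4f/f, with overlap. Cyc1, a subunit of complex III, was at 72.8, 97.15 and 61.8 CPM in Smad4-iECKO, against 76.3, 86.2 and 69.65 CPM in Smad4f/f, with overlap (log2 fold change -0.008).

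Genes that build or regulate mitochondria gave a mixed picture. Of 77 mitochondrial ribosomal proteins, 57 were negative, with a median of -0.29, and -0.06 without Smad4f/f replicate 1. Of 16 regulators of mitochondrial biogenesis, 8 were negative and 8 positive (median 0.01). Gabpa, which encodes the ETS factor named above, was at 81.9, 59.0 and 92.6 CPM in Smad4-iECKO, against 160.6, 79.0 and 88.4 CPM in Smad4f/f, with overlap. Of 10 genes by which HIF adjusts respiration to oxygen, 6 were positive (median 0.22). Egln3, a HIF prolyl hydroxylase that is itself a HIF target, was at 4.999, 7.44 and 8.29 CPM in Smad4-iECKO, against 2.44, 1.85 and 2.24 CPM in Smad4f/f. The groups did not overlap, with a log2 fold change of 1.66 (standard error 0.53, unadjusted p = 0.0124 and adjusted p = 1.0 by edgeR).

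Cytosolic ribosomal proteins, whose transcripts are also short, showed the tilt of Smad4f/f replicate 1 most fully. They made up 0.864%, 1.12% and 0.834% of counts in Smad4-iECKO, against 2.45%, 0.972% and 0.852% in Smad4f/f. Of 80 tested, 78 were negative (median -0.62), and the median was 0.02 without Smad4f/f replicate 1, where that of the respiratory chain genes was -0.21. With a rod marker covariate in the edgeR fit, the median of the respiratory chain genes was -0.49, with 82 of 86 negative. With an endothelial marker covariate it was -0.44, with 78 negative. The part of depth, transcript length, GC content and cell type markers in the difference of the respiratory chain genes was not tested beyond these values.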

How the data were processed

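RNA from isolated retinal endothelial cells was extracted with a column kit and made into Illumina TruSeq RNA v2 libraries, per the labels' protocols. STAR, DESeq2 and the mm10 build are named, without versions, per the submitters' processing notes. Neither counter nor gene annotation is given in the sources used here. The authors deposited whole-number read counts per gene, not normalized, in 18 columns, 3 for each of 6 samples. The 3 columns of a sample were identical in all 24421 genes, so 1 was used. The authors' deposited comparison is a second table, which holds, per the file headers, a mean normalized signal, log2 fold changes and their errors, a score for the test, and both raw and adjusted p-values.

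Groups came from the genotype label, and replicates were numbered in accession order. Counts were fitted with edgeR 4.0.16 in R 4.3.3 (quasi-likelihood F-test, TMM scaling, no covariate, filterByExpr with a minimum count of 10 and a minimum total of 15), with Benjamini-Hochberg adjustment over 14362 genes and a threshold of 0.05. The standard error was the log2 fold change divided by the square root of F. CPM values were scaled by TMM, and deviations used log2(CPM + 0.5). Alternatives were other scalings and filters, DESeq2 1.42.0, limma-voom (limma 3.58.1), marker covariates, title prefix as a block or prefix 38 alone, and leaving out each replicate. Offsets from lowess trends (span 0.3) of GC and transcript length were added after the data were seen. Fits were tested on simulated data with 200 changed genes, each changed by more than the median respiratory chain gene. The simulated data held no trend of transcript length or GC, so they do not cover differences of the kind and size described here. Gene coordinates, transcript lengths and GC are from GENCODE M21 (GRCm38), using the lower median length of a gene's principal coding transcripts, and 87 of 87 genes had a value. Figures were drawn with matplotlib 3.10.9.

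The genes and lists were chosen with earlier results of these data known. Genes to be named were a list of major subunits, 3 genes of smallest p and the most abundant gene of each complex, tissue-restricted isoforms with their partners, 2 assembly factors, and up to 3 of smallest p in other lists. Of the genes under this rule, 1 is not reported here. Uqcrb, Cyc1, Ndufa10 and the other genes without group overlap that lie outside that rule were named after their values were seen.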

Additional observations from a re-analysis of the deposited data

How the results depend on the processing

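Over 21 other settings, the median log2 fold change of the respiratory chain genes stayed negative, between -0.61 and -0.15. The median of each complex stayed negative too, over wider ranges for some. It ran from -0.595 to -0.016 in complex III, -0.581 to -0.089 in complex I and -0.844 to -0.142 in complex IV. For the complex I assembly factors it ran from -0.734 to -0.016. Over all the respiratory chain genes, the weakest median, with 64 genes negative, came from limma-voom with sample quality weights. Leaving out 1 replicate at a time gave -0.61 to -0.21 over all these genes, weakest without Smad4f/f replicate 1. No gene was called in any of these fits except DESeq2 on all 18 columns, in which identical columns count as samples and 32 genes were called lower. At an unadjusted p under 0.05 the number lower was 10 with title prefix as a block, 4 by limma-voom and 2 by DESeq2, set beside 1 by edgeR. The number whose groups did not overlap was 30 within title prefix 38 (34.9%, against 14.9% of all tested genes), 20 to 42 without 1 replicate (against 5.56% to 8.21% of all tested genes) and 15 to 19 under other scalings and filters (against 2.39% to 3.1%). Fewer libraries make overlap rarer by construction. No paired analysis was possible because replicate numbers were given in accession order and pair no samples.

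The sign of the following genes turned in some fits. No fit with 1 column per sample called them, while DESeq2 on all 18 columns called Atp5k and Atp5g2 lower. Left out 1 replicate at a time, the log2 fold change ran from -2.41 to 0.078 for Atp5k, -0.47 to 0.10 for Cox4i2, -0.63 to 0.25 for Cox5b, -0.69 to 0.50 for Cox6a1, -2.03 to 0.023 for Ndufaf2, -0.25 to 0.093 for Ndufs3, -0.31 to 0.37 for Ndufs7, -0.61 to 0.016 for Ndufs8, -0.21 to 0.44 for Ndufv1 and -0.24 to 0.56 for Uqcrc1. By limma-voom it was 0.51 for Atp5k, 0.089 for Cox5b, 0.57 for Ndufaf2, -0.32 for Ndufs7, 0.28 for Ndufs8, -0.20 for Ndufv1 and -0.21 for Uqcrc1. Within title prefix 38 it was -0.27 for Ndufa4l2, 0.03 for Ndufs1, -0.19 for Ndufs7, -0.025 for Ndufv1 and -0.20 for Uqcrc1. With a length trend as offset it was 0.02 for Atp5g2, 0.094 for Cox4i1, 0.17 for Cox4i2, 0.015 for Cox5b, 0.50 for Cox6a1 and 0.18 for Ndufs3. With a GC trend it was 0.021 for Ndufs1 and -0.17 for Ndufs7, and with both trends 0.039 for Cox4i2, 0.14 for Cox5b, 0.17 for Cox6a1, 0.038 for Ndufs1 and 0.11 for Ndufs3. Ndufs3 was at 0.013 with upper quartile scaling and at 0.011 with a mean of at least 5 CPM, and Ndufs7 at -0.084 with a rod marker covariate. The cause of these turns was not tested. In Smad4-iECKO replicate 2, 6 of the 87 genes had no count, and a 0 there allows up to 1.39 CPM. Uqcrb, among them, was at 19.7 CPM or more in every other library. The part of depth in these zeros was not tested.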
